A study of Mus musculus with 40 samples.

Results

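The nuclear respiratory chain genes are the genes of the cell nucleus that encode the subunits of complexes I to V of the mitochondrial inner membrane. They were chosen by symbol, as protein-coding genes beginning with Ndufa, Ndufb, Ndufc, Ndufs, Ndufv, Sdh, Uqcr, Atp5 or Cox4 to Cox8, leaving out Cox6b2 and the Ndufaf assembly factors. The rule found 88 genes among the 43346 in each table, 21461 of which are nuclear and protein-coding. Complex I holds 38 of them, complex II 8, complex III 8, complex IV 17 and complex V 17. The rule reads symbols and no measured value. The prefixes also take in Sdhaf1 to Sdhaf4, which help to assemble complex II and are not subunits of it, and Ndufa4, which is now counted as a subunit of complex IV.

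RNA-seq followed the genes in 40 tumours of the MMTV-Wnt1 mouse line, in all of which the MMTV promoter drives a Wnt1 transgene in the mammary gland, and the tumours arise spontaneously. Tumours were wild-type for Trp53 and Cdkn1a, p53-null or p21-null, and were untreated or had been exposed to doxorubicin, a DNA-damaging drug that traps topoisomerase II on DNA. Treated mice received 4 mg/kg by the intraperitoneal route on each of 5 days and the tumour was taken 24 h after the final dose. What the null alleles lack of either gene is not in the labels, which also give no age of the mice. The groups were untreated wild-type (6 tumours of 6 mice), doxorubicin-treated wild-type (6 tumours of 5 mice), untreated p53-null (6 of 4), treated p53-null (6 of 5), untreated p21-null (6 of 5) and treated p21-null (10 of 9). Titles carry a number whose meaning the labels do not give. Tumours of a group with the same number were assumed to come from 1 mouse and were averaged. Under that assumption n counts mice, named below by m and the number. The p-values rest on the spread between mice within groups, estimated over all 6 groups together. Comparisons of null groups therefore also use the spread of wild-type mice.

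The respiratory chain passes electrons from NADH through complex I, or from succinate through complex II, to complex III, on to cytochrome c and then to complex IV, which reduces oxygen. Complexes I, III and IV pump protons across the inner membrane, and complex V, the ATP synthase, uses their return to make ATP. A small number of core subunits carry the reaction centres, several of them encoded by the mitochondrial genome. Many accessory subunits made from nuclear genes surround that core, and in complex IV several nuclear subunits exist as isoforms used in particular tissues such as muscle and lung. In mammary tumours oxidative phosphorylation runs beside a high rate of glycolysis.

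The deposited values are TPM, an abundance scaled to the same total in every tumour, which correct for transcript length and carry no information on depth, so sequencing depth is unknown and no counting interval can be given. Libraries of the wild-type tumours came from a total RNA kit and those of both null genotypes from another kit. In wild-type tumours 7.7% to 10.7% of TPM belonged to nuclear protein-coding genes, against 79.6% to 86.3% in null tumours. Each tumour was therefore rescaled so that these genes make up the whole of the TPM scale (rescaled TPM), and differences are given as log2(rescaled TPM + 1), which understates the change of genes with low values. The kit differs with the genotype there and their parts cannot be told apart, so levels of wild-type and null tumours are set side by side without a test. Trp53 had a median of 73.1 rescaled TPM in untreated p53-null tumours and one of 53.4 in treated ones. Cdkn1a had a median of 59.9 in untreated p21-null tumours and of 278.7 (224.3 to 328.5) in treated ones, above the 213.4 of treated wild-type tumours, so neither transcript was absent where its gene was labelled null. The summed level of 7 luminal markers lay between 2422 and 6457 rescaled TPM and that of 6 basal markers between 1732 and 5479, in all groups. These are bulk tumours, in which fewer cells of a type and less RNA per cell cannot be told apart.

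Together the 88 genes held 1.51% to 1.92% of protein-coding TPM in wild-type tumours and 2.38% to 3.32% in null tumours. Among untreated mice the share had a median of 1.75% in wild-type, 2.92% in p53-null and 2.88% in p21-null tumours. After doxorubicin the medians were 1.68%, 2.64% and 3.18%. The 5 treated p53-null mice lay between 2.38% and 2.84%. The 9 treated p21-null mice lay between 2.65% and 3.32%, so that the groups overlapped at the lower end of the p21-null range. In 5 of those 9 mice the share was 3.18% or more, and in these the summed level of 6 endothelial and pericyte markers was 48.0 to 57.2 rescaled TPM. In the 4 mice with the lower shares it was 93.4 to 144.9. The mice were divided by the share itself, and the cut and the marker list were picked with the values known. The gap between these sums is therefore a description only. The summed level of the macrophage markers was 1369 to 3213 in the mice with higher shares and 2067 to 3934 in the others, which overlapped. Treated p53-null mice m2688, m2237, m2771, m2769 and m2551 had shares of 2.38%, 2.56%, 2.64%, 2.77% and 2.84%. Their endothelial and pericyte sums, in the same order, were 143.8, 147.3, 119.9, 126.1 and 181.4. The part of any of these cells in the share was not tested.

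**Figure D1:**
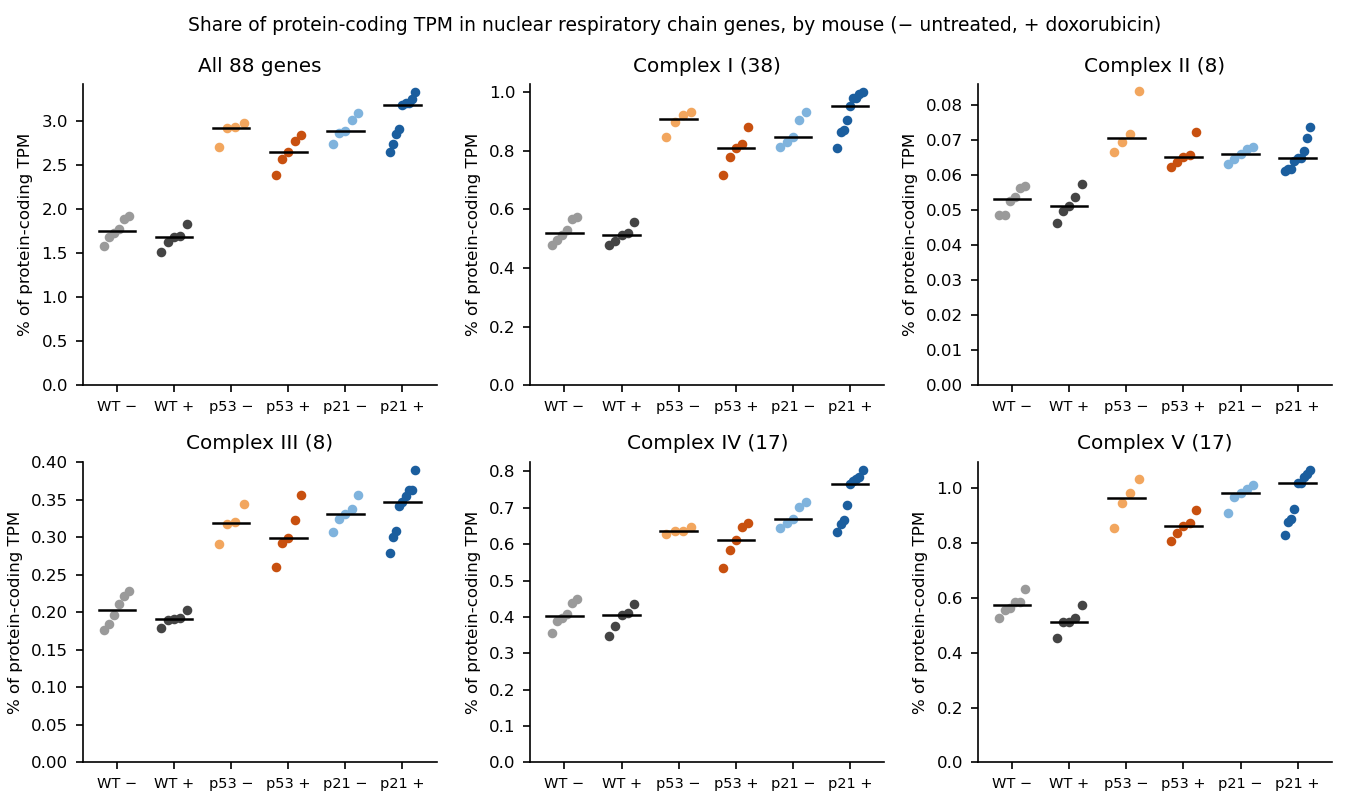
Share of protein-coding TPM (%, y axis from 0) held by all 88 genes and by the genes of each complex, with 1 point per mouse, a bar at the median and the 6 groups on the x axis (− untreated, + doxorubicin). For all genes the medians after doxorubicin are 1.68% in wild-type, 2.64% in p53-null and 3.18% in p21-null tumours; wild-type libraries were made with another kit.

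Within each complex the most abundant transcript stood far above the least abundant. Ndufa4 led the complex I prefixes in all 6 groups, with a median of 402 rescaled TPM in untreated wild-type tumours, and Ndufa4l2, its paralogue known to be induced by hypoxia, stood last, with 11.2 in the same tumours. In complex II the highest mean was that of Sdha, the flavoprotein that oxidises succinate, in wild-type tumours, of Sdhb, the iron-sulfur subunit, in p53-null tumours and of Sdhd, a membrane anchor, in p21-null tumours. The assembly factor Sdhaf3 was lowest in all 6 groups. Uqcrh, the hinge protein of complex III, led its complex with a median of 574 in untreated wild-type tumours. The lowest of complex III was Uqcrq, a small membrane subunit, in wild-type tumours and Uqcrfs1, the Rieske iron-sulfur protein, in null tumours. Cox6b1, a subunit on the outer face of complex IV, led that complex at 722, and Atp5b, the catalytic beta subunit of the ATP synthase, was the highest of all in untreated wild-type tumours at 1114. Atp5s, known as factor B, was lowest in complex V. Of the 88 genes 86 reached 1 rescaled TPM in at least 4 mice and were tested. Cox7b2 and Cox8c, isoforms known from testis, did not, with highest values of 0.302 and 0.153 in any mouse.

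Untreated null tumours had higher rescaled TPM than untreated wild-type tumours for 78 of the 86 genes, with a median ratio of 1.59. By transcript length its median was 1.85 for the 34 genes whose annotated principal transcript is under 700 bases, 1.61 for the 31 of at least 700 and under 1500 bases and 1.25 for the 21 of 1500 bases or more. The ratio was 4.08 for Uqcrq and 5.55 for Cox4i2. Because the kits differ, these ratios are descriptions only.

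Doxorubicin moved few of these genes in wild-type tumours. Sdhaf1, a factor that helps to insert iron-sulfur clusters into Sdhb, rose. Uqcrfs1, Ndufb11, a membrane-arm accessory subunit of complex I, and Atp5o, a peripheral-stalk subunit of the ATP synthase, fell. That is 1 of 86 genes up, where 3.73% of all genes tested were up, and 3 down, where 1.33% were. The median of the 86 was -0.06 on the log2 scale and that of all 14928 genes tested 0.04. Across all genes 557 were up and 199 down, and on median-of-ratios scaling 378 and 358.

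Sdhaf1 (ENSMUSG00000074211, GRCm38 chromosome 7, 30321406 to 30323895, minus strand) had 7.50, 8.32 and 9.06 rescaled TPM as lowest, median and highest of the 6 untreated wild-type mice. The 5 treated mice had 11.1, 11.5, 11.7, 13.9 and 14.2. Every treated mouse was above every untreated one. The difference was 0.53 ± 0.12 (SE) on the log2 scale, 1.45-fold as rescaled TPM + 1 (limma, Benjamini-Hochberg adjusted p = 0.00845). The TPM as deposited were low for this gene in wild-type tumours, with means of 0.798 untreated and 1.17 treated, and on that scale, as on median-of-ratios scaling, the adjusted p missed the threshold.

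Uqcrfs1 (chromosome 13, 30540308 to 30545362) had 70.2, 83.4 and 100 rescaled TPM as lowest, median and highest of the untreated wild-type mice. The treated mice had 51.5, 58.5, 69.2, 70.0 and 75.5. Only the highest treated mouse reached into the untreated range, and the gene fell by 0.35 ± 0.10 on the log2 scale (limma, Benjamini-Hochberg adjusted p = 0.0285). Ndufb11 had 140.0 to 169 in untreated mice and 124, 129, 133, 133 and 139 in treated mice. These groups did not overlap, and the gene fell by 0.24 ± 0.07 (limma, Benjamini-Hochberg adjusted p = 0.0455). Atp5o had 283 to 355 in untreated mice and 207, 255, 259, 263 and 285 in treated mice. A single treated mouse reached the untreated range, and the gene fell by 0.26 ± 0.08 (limma, Benjamini-Hochberg adjusted p = 0.0475). All 17 genes of complex V lay lower in treated wild-type mice, with a median of -0.18. Of them 7 had an unadjusted p under 0.05, as did 2790 of all 14928 genes. The median of complex I was -0.03, of complex II 0.01, of complex III -0.11 and of complex IV -0.05. The calls of Uqcrfs1, Ndufb11 and Atp5o were each lost when single mice were left out, in 5, 9 and 8 of 11 cases, and none of them passed on the TPM as deposited.

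In p53-null tumours the direction was downward but single genes rarely passed. Of the 86 genes 77 lay lower after doxorubicin, with a median of -0.13 against 0.05 over all genes. No gene rose by limma, where 1.17% of all genes did, and 1 fell, where 0.456% did. With an unadjusted p under 0.05 there were 24 of the 86, and 2084 of all 14928 genes. Every gene of complex V lay lower (17 of 17, median -0.15), as did every core subunit of complex I (7 of 7). The medians were -0.16 for complex I, -0.13 for complex II, -0.09 for complex III and -0.12 for complex IV. The largest differences were those of Cox4i2 (-0.49 ± 0.48) and Cox8b (-0.49 ± 0.79), which did not pass.

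In p21-null tumours 3 genes rose and none fell by limma, where 5.0% of all genes rose and 4.03% fell. On median-of-ratios scaling 1049 of all genes rose and 573 fell, against 746 and 601 here, and on a scale without haemoglobin, milk and ribosomal protein genes 787 and 1206. With an unadjusted p under 0.05 there were 12 of the 86, and 3700 of all 14928 genes. The median of the 86 was 0.03 against -0.09 over all genes, with 52 of 86 higher in treated mice. The medians were 0.08 in complexes I and IV and -0.02 in complex V. The 3 that rose were Ndufb6 and Ndufb9, both accessory subunits of the membrane arm of complex I, and Sdhaf1.

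Ndufb6 (ENSMUSG00000071014, chromosome 4, 40270591 to 40279421, minus strand) had 134, 137, 143, 145 and 145 rescaled TPM in the 5 untreated p21-null mice. The 9 treated mice had 152, 183 and 204 as lowest, median and highest. The groups did not overlap and Ndufb6 rose by 0.35 ± 0.10 on the log2 scale (limma, Benjamini-Hochberg adjusted p = 0.0328). Ndufb9 (chromosome 15, 58933756 to 58939488) had 320.4, 328, 335, 363 and 366 in untreated mice and 373 to 426 in treated mice. It also separated completely and rose by 0.21 ± 0.07 (limma, Benjamini-Hochberg adjusted p = 0.0461). Sdhaf1 had 9.82, 9.98, 11.7, 12.2 and 12.8 in untreated mice and 11.9, 14.6 and 18.5 as lowest, median and highest of the treated mice. Its groups overlapped, and it rose by 0.35 ± 0.12 (limma, Benjamini-Hochberg adjusted p = 0.0472). These 3 calls were lost in 7, 9 and 9 of 14 fits that each left out 1 mouse. None of them passed on the scale without haemoglobin, milk and ribosomal protein genes, and only Ndufb6 passed with the 4 null groups fitted alone.

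Between untreated p53-null and p21-null tumours, which share a library kit, the chain was nearly level. The median of the 86 genes was 0.01 and that of all genes 0.03. An unadjusted p under 0.05 was found for 16 of the 86 and for 2392 of all 14928 genes. A single gene passed upward, where 1.05% of all genes did, and none downward by limma, where 0.723% did. The gene was Sdhb (ENSMUSG00000009863, chromosome 4, 140961203 to 140979193). The p53-null mice had 166, 182, 189.5 and 259 rescaled TPM. The p21-null mice had 136, 148, 149, 150.2 and 158. The groups did not overlap and Sdhb was higher in p53-null mice by 0.40 ± 0.10 on the log2 scale (limma, Benjamini-Hochberg adjusted p = 0.0387). The call was lost in 7 of 9 fits that each left out 1 mouse. It was also lost on all 3 other scales and when only the 4 null groups or the compared groups were fitted. Cox4i2 (0.99 ± 0.48), Ndufa4l2 (-0.72 ± 0.53) and Uqcr11, a small subunit of complex III (-0.43 ± 0.13), had the largest differences and did not pass.

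After doxorubicin the null genotypes differed in many of these genes. In treated p53-null tumours 33 of the 86 genes (38.4%) were lower than in treated p21-null tumours, where 5.82% of all genes tested were lower, and 1 was higher, where 20.0% of all genes were. The median of the 86 was -0.18 against 0.15 over all genes. On median-of-ratios scaling, which moved the median of all genes to 0.02, 44 of the 86 were lower and 1 higher, and over all genes 1730 were higher and 1749 lower against 2991 and 869 here. The TPM as deposited gave 35 lower and 1 higher, with 2317 higher and 1308 lower over all genes. The 33 became 21 with all 40 tumours as separate samples and 17 with the compared groups fitted alone. This comparison uses the same treated mice as the treatment comparisons above.

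**Figure D2:**
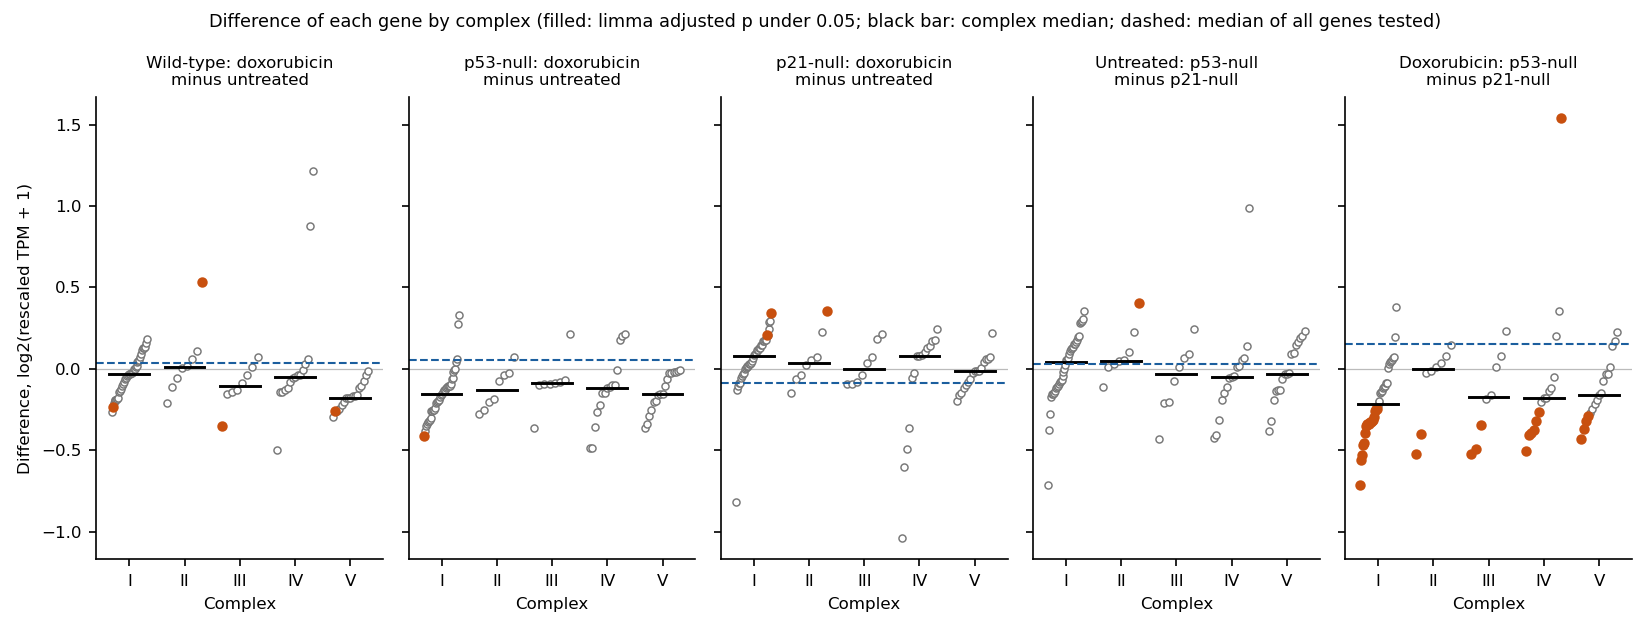
Difference of each of the 86 genes tested, as log2(rescaled TPM + 1), by complex on the x axis in each comparison. Filled points passed a limma adjusted p of 0.05, black bars mark the complex median and the dashed line the median of all genes tested; in treated p53-null minus p21-null tumours 33 points are filled below 0 and 1 above.

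Every complex held genes that were lower in treated p53-null tumours. In complex I 18 of 38 genes were lower, with a median of -0.22. The accessory subunits held 15 of these 18 (15 of 29 tested, median -0.25) and the core subunits 3 of 7 (median -0.19). In complex II none of the 4 subunits Sdha to Sdhd passed by limma, with no unadjusted p under 0.05 and a median of 0.02, while 2 of the 4 assembly factors were lower. In complex III 3 of the 5 small subunits were lower and none of the 3 core and Rieske proteins by limma (1 with an unadjusted p under 0.05). In complex IV all 10 common subunits had lower levels and 6 of them passed. In complex V 4 of 17 were lower, 3 of them in the F1 head and 1 in the c ring. Whether the complexes differ from each other was not tested.

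The 10 genes with the smallest adjusted p were 7 accessory subunits of complex I (Ndufb7, Ndufb6, Ndufab1, Ndufb8, Ndufa11, Ndufb9 and Ndufa1), the complex IV subunits Cox6a1 and Cox8a, and Sdhaf1. The promoter windows of 4 of them follow, from 250 bases before to 50 bases after the annotated start, as given by RefSeq on GRCm38.p6. Whether these genes vary together over the mice was not tested. They are Ndufb6 (chr4:40279372-40279671, minus strand), Ndufa11 (chr17:56717512-56717811, plus strand), Sdhaf1 (chr7:30322326-30322625, minus strand) and Cox6a1 (chr5:115348909-115349208, minus strand), each written 5′ to 3′ along its gene. The Sdhaf1 window lies inside the coordinates given above for that gene. RefSeq and the gene models behind those coordinates therefore place its start differently. Capitals mark exact matches on either strand to motifs of 5 families of factors.
Ndufb6: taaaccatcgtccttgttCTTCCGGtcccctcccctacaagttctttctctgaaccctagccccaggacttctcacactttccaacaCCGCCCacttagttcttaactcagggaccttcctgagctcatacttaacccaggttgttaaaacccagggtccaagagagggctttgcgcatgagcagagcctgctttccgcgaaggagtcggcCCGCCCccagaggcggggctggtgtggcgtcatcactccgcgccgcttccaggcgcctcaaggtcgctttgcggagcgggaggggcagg
Ndufa11: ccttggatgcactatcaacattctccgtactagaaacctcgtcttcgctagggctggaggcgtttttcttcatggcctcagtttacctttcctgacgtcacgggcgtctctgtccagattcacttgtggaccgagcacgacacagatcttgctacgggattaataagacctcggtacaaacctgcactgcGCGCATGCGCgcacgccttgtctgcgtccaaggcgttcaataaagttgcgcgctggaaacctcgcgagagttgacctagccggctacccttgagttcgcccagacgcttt
Sdhaf1: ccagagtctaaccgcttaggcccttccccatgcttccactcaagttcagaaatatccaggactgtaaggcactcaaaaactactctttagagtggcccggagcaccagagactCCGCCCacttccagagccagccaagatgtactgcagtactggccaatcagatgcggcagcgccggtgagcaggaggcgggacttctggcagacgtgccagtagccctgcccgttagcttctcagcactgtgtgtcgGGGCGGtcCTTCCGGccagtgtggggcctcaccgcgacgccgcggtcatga
Cox6a1: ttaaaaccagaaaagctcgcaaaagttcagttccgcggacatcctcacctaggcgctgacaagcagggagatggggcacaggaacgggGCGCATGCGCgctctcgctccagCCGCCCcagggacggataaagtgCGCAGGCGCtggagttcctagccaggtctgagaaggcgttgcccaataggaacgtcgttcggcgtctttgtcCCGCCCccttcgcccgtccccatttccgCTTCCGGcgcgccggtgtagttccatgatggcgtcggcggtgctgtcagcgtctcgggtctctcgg
The motifs were GCGCNTGCG for NRF1, CCGGAAG for ETS factors, AAGATGG for YY1, AAGGTCA for oestrogen-related receptors and GGGCGG for SP factors. NRF1, the ETS factor GABP and the oestrogen-related receptors are known regulators of nuclear respiratory genes. Ndufb6 and Sdhaf1 each held 1 ETS and 2 SP matches, Ndufa11 1 NRF1 match and Cox6a1 2 NRF1, 1 ETS and 2 SP matches, counting a stretch that matched on both strands once, and no match overlapped one of another motif. Windows were found for 70 of the 88 genes (75 windows). An NRF1 match stood in 34.7% of them, in 6.31% of all 32851 windows and in 8.61% of the 21262 windows of protein-coding genes. For ETS the shares were 25.3%, 8.86% and 11.6%, for YY1 13.3%, 6.34% and 6.24%, and for oestrogen-related receptors 10.7%, 4.72% and 4.08%. For SP they were 41.3%, 35.7% and 46.2%, the share in members being between the other two. A match describes these letters only.

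Cox6a1 (ENSMUSG00000041697, chromosome 5, 115345642 to 115348981) encodes the widely used isoform of subunit VIa, found where complex IV pairs with itself. The 5 treated p53-null mice had 529, 549, 663, 676 and 701 rescaled TPM. The 9 treated p21-null mice had 764, 842 and 1065 as lowest, median and highest. No p53-null mouse reached the p21-null range, and the p53-null level was 0.705-fold that of p21-null mice, -0.50 ± 0.08 on the log2 scale (limma, Benjamini-Hochberg adjusted p = 7.59e-05). Cox8a, the smallest nuclear subunit of complex IV in its common form, had 599.7, 622, 690.1, 695 and 731 in p53-null mice. The p21-null mice had 764, 892 and 956 as lowest, median and highest. The groups again did not overlap, with a difference of -0.38 ± 0.08 (limma, Benjamini-Hochberg adjusted p = 0.000843).

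Ndufb7 (chromosome 8, 83566671 to 83571626), an accessory subunit on the intermembrane side of complex I, had 123, 169.7, 187, 192 and 245 rescaled TPM in treated p53-null mice. The treated p21-null mice had 234, 243, 247, 266, 292, 329, 347, 349 and 383. A single p53-null mouse reached into the p21-null range, and the difference of -0.71 ± 0.12 was the largest of the 86 in this direction (limma, Benjamini-Hochberg adjusted p = 0.000167). Ndufb6 had 104, 116, 116, 133 and 139 in treated p53-null mice, all below the 152 of the lowest treated p21-null mouse. Its difference was -0.56 ± 0.10 (limma, Benjamini-Hochberg adjusted p = 0.00042). Ndufab1, the mitochondrial acyl carrier protein, had 169.7, 181, 196, 209.8 and 221 in p53-null mice and 207, 305 and 355 as lowest, median and highest in p21-null mice. These overlapped, with a difference of -0.53 ± 0.11 (limma, Benjamini-Hochberg adjusted p = 0.00116).

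Among the membrane-arm subunits Ndufb8 had 192, 208, 239.7, 249.7 and 274 rescaled TPM in treated p53-null mice, and 268, 307 and 327 as lowest, median and highest in treated p21-null mice. Ndufa11 had 43.7, 44.1, 47.0, 55.1 and 58.8 against 56.1, 69.5 and 77.5. Ndufb9 had 283, 307, 315, 330.2 and 378 against 373, 389.5 and 426. In each of these 3 the highest p53-null mouse lay just above the lowest p21-null mouse. The differences were -0.40 ± 0.09, -0.47 ± 0.10 and -0.30 ± 0.07 (limma, Benjamini-Hochberg adjusted p = 0.00176, 0.00194 and 0.00227). Ndufa1, a single-pass subunit of the same arm, had 213, 249.6, 255, 257 and 262 against 305, 326 and 416, without overlap. Its difference was -0.45 ± 0.10 (limma, Benjamini-Hochberg adjusted p = 0.00234).

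**Figure D3:**
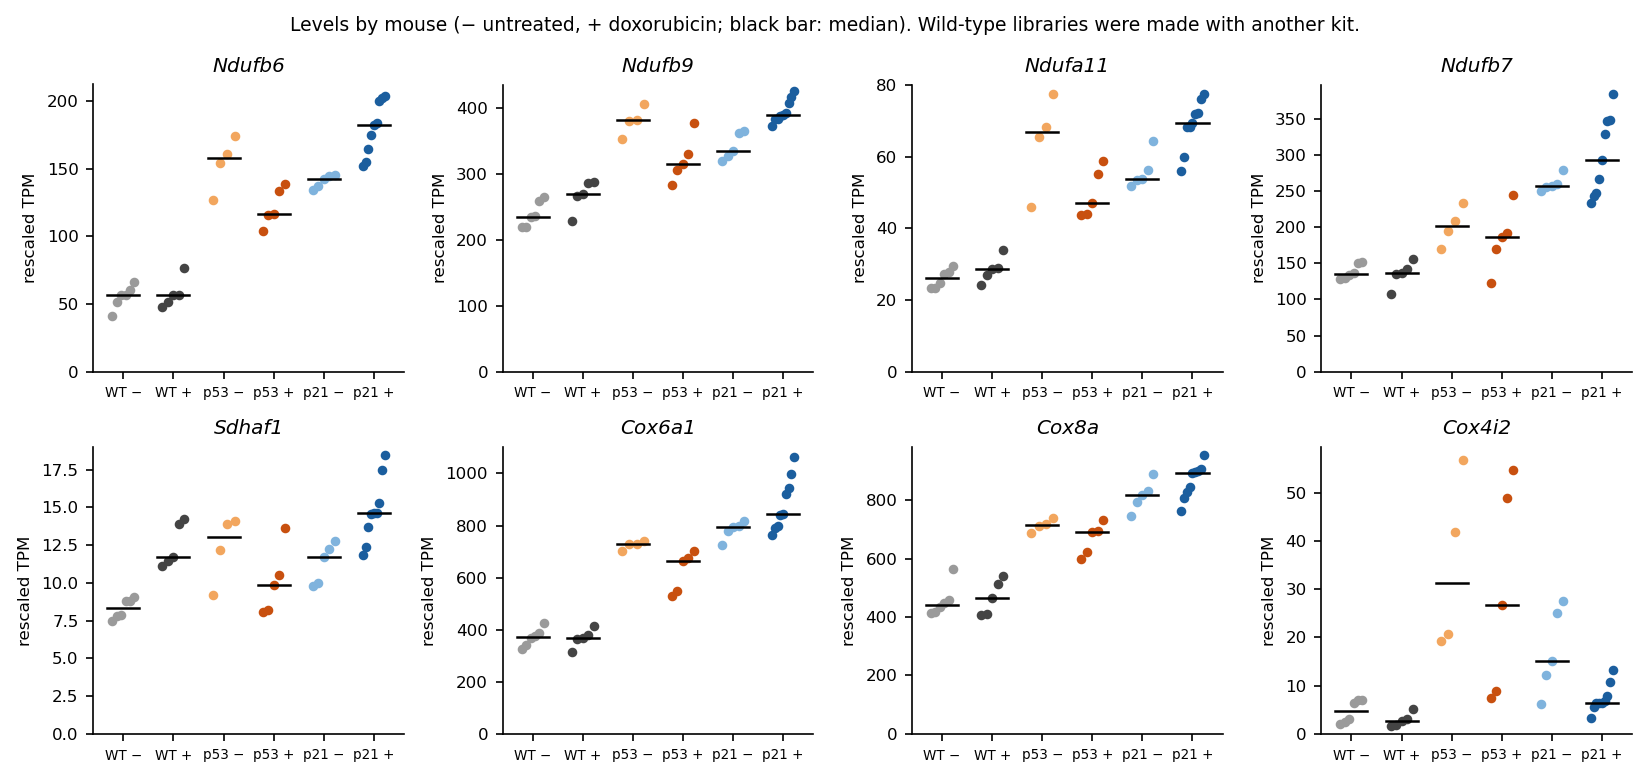
Rescaled TPM (y axes from 0) of single genes with 1 point per mouse and a black bar at the median, in the 6 groups on the x axis (− untreated, + doxorubicin). Treated p53-null mice lie at 104 to 139 for Ndufb6 and treated p21-null mice at 152 to 204.

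Of the 4 assembly factors of complex II Sdhaf1 and Sdhaf4 were lower. Sdhaf1 had 8.05, 8.23, 9.88, 10.5 and 13.6 rescaled TPM in treated p53-null mice and 11.9, 14.6 and 18.5 as lowest, median and highest in treated p21-null mice. Only the highest p53-null mouse reached the p21-null range, and the difference was -0.52 ± 0.12 (limma, Benjamini-Hochberg adjusted p = 0.00189). Sdhaf4, which helps to join the flavoprotein to the iron-sulfur subunit, differed by -0.40 (limma, Benjamini-Hochberg adjusted p = 0.011), a call that was lost without p53-null mouse m2688. Sdhaf2, which attaches the flavin to Sdha, and Sdhaf3 differed by 0.08 and -0.01 and did not pass.

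Of the small subunits of complex III Uqcr11 had 364, 392, 393, 411 and 523 rescaled TPM in treated p53-null mice and 454, 592 and 685 as lowest, median and highest in treated p21-null mice. Uqcrq had 203, 219.7, 228, 231 and 306 against 271, 345 and 407. In both genes 4 of the 5 p53-null mice lay below every p21-null mouse. The differences were -0.49 ± 0.11 and -0.52 ± 0.12 (limma, Benjamini-Hochberg adjusted p = 0.00258 and 0.00317). Within the c ring of the ATP synthase, whose protein is made from Atp5g1, Atp5g2 and Atp5g3, Atp5g3 differed by -0.37 (limma, Benjamini-Hochberg adjusted p = 0.0086). Atp5g1 and Atp5g2 differed by -0.19 and 0.23 and did not pass. Atp5g3 held a median of 41.6% of the summed level of the 3 genes in treated p53-null mice and 49.2% in treated p21-null mice. Atp5b differed by -0.29 (limma, Benjamini-Hochberg adjusted p = 0.038), and this call was lost in 8 of 14 fits that each left out 1 mouse.

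The other genes that were lower in treated p53-null tumours are named here because they passed and were chosen after their values were seen, apart from Cox6b1 and Cox7a2. In complex I they were Ndufa2, Ndufa3, Ndufa7, Ndufb2, Ndufb3, Ndufs3, Ndufs4, Ndufs5, Ndufs6, Ndufs7 and Ndufv1. In complex III it was Uqcr10. In complex IV they were Cox5a, Cox5b, Cox6b1 and Cox7a2, and in complex V Atp5d and Atp5e, the small subunits of the central stalk. The groups did not overlap for Cox5b, as for Cox6a1, Cox8a, Ndufa1 and Ndufb6. Over all genes tested such separation was not counted in any comparison. No share therefore stands beside these genes or beside those said above not to overlap. Leaving out single mice moved the count of 33 to between 24 (without p53-null mouse m2688) and 36 (without p21-null mouse m4380). The calls of Cox6a1, Cox8a, Ndufb6 to Ndufb9, Ndufab1, Ndufa1, Ndufa11, Sdhaf1, Uqcr11 and Uqcrq held in all 14 of these fits and in all 11 other settings tried.

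The counts are also given by transcript length. Of the 34 members with a principal transcript under 700 bases 19 were lower, with a median of -0.32. Of the 31 of at least 700 and under 1500 bases 8 were lower and 1 was higher, with a median of -0.14. Of the 21 of 1500 bases or more 6 were lower, with a median of -0.03. Over all genes tested in the same length classes the medians were -0.10, -0.04 and 0.20, with 72 of 503, 305 of 2303 and 492 of 12122 genes lower. The part of length in the difference was not tested.

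**Figure D4:**
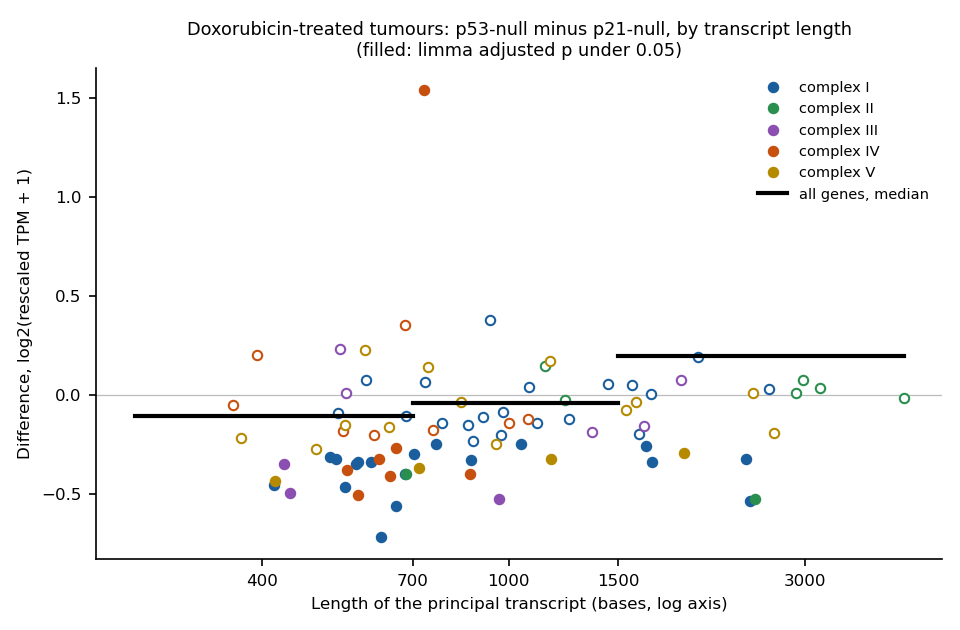
Difference between treated p53-null and p21-null tumours, as log2(rescaled TPM + 1), against the length of the principal transcript in bases (log axis), 1 point per gene, coloured by complex and filled where the limma adjusted p was under 0.05. Black lines mark the median of all genes in each length class, -0.10, -0.04 and 0.20 from short to long; member medians in these classes are -0.32, -0.14 and -0.03.

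The response to doxorubicin itself differed between the null genotypes for 3 genes. In p21-null minus p53-null tumours they were higher, where 0.63% of all genes were, and none was lower by limma, where 0.0603% were. With an unadjusted p under 0.05 there were 21 of the 86, and 2090 of all 14928 genes. The median of the 86 was 0.17 against -0.11 over all genes. The genes were Ndufb9 (0.45 ± 0.10), Ndufb6 (0.68 ± 0.16) and Ndufa11 (0.64 ± 0.16), with adjusted p of 0.0283, 0.0358 and 0.0492 by limma with Benjamini-Hochberg adjustment. Ndufb6 had 127, 154, 161 and 174 rescaled TPM in untreated p53-null mice, above or within the range of treated ones, while every treated p21-null mouse lay above every untreated one. Ndufb9 had 353, 381, 382 and 407 in untreated p53-null mice and Ndufa11 45.9, 65.5, 68.5 and 77.4. For all 3 genes the p53-null group mean was lower and the p21-null group mean higher after treatment. These calls were lost in 8 of 23 fits that each left out 1 mouse for Ndufb9, in 15 for Ndufb6 and in 17 for Ndufa11. None passed on the scale without haemoglobin, milk and ribosomal protein genes. On median-of-ratios scaling Ndufb6 alone passed, and with 40 tumours as separate samples Ndufb9 alone. The comparison shares all its mice with the treatment comparisons and the comparison of treated nulls.

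The response of p53-null tumours differed from that of wild-type tumours in Sdhaf1. It was -0.81 ± 0.19 on the log2 scale (limma, Benjamini-Hochberg adjusted p = 0.0252), from the rise in wild-type mice and a p53-null difference of -0.27 that did not pass. Untreated p53-null mice had 9.22, 12.1, 13.9 and 14.1 rescaled TPM. This was the only gene of the 86 that was lower in that comparison by limma, where 0.563% of all genes were. None was higher, where 0.181% were. An unadjusted p under 0.05 was found for 10 of the 86 and for 1657 of all 14928 genes. The call was lost in 6 of 20 fits that each left out 1 mouse, on the TPM as deposited, on median-of-ratios scaling and with the compared groups alone. Between p21-null and wild-type responses no gene passed by limma in either direction, where 0.0603% of all genes were higher and 0.0201% lower. Of the 86, 5 had an unadjusted p under 0.05, as did 1334 of all 14928 genes. The median was 0.13 against -0.12 over all genes. These response differences were taken within kit and then compared between kits.

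Reads of some members may be shared with other genes, since the kit used for null tumours does not mark strand and the sources used here do not say how strand was counted. Vmac overlaps Ndufa11 on the opposite strand. Its level was 28.4 to 44.3 rescaled TPM in treated p53-null and 28.2 to 63.8 in treated p21-null mice, and it passed upward in treated wild-type mice (0.83, limma, Benjamini-Hochberg adjusted p = 0.00966). Smim27, which overlaps Ndufb6, did not pass in any comparison. E130208F15Rik, which overlaps Sdhaf1, was listed at 0 in all mice. The processed pseudogene Ndufb4c carried 214 to 248 TPM as deposited in the null groups, so the level of Ndufb4 is uncertain.

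Cox4i2, the isoform of subunit IV known from lung and from cells of vessel walls, was the 1 gene higher in treated p53-null than treated p21-null tumours. The p53-null mice had 7.51, 8.95, 26.6, 48.9 and 54.7 rescaled TPM. The p21-null mice had 3.22, 6.38 and 13.2 as lowest, median and highest. The 3 highest p53-null mice lay above all p21-null mice and the other 2 within their range. The means were 29.3 in treated p53-null and 7.36 in treated p21-null mice. As rescaled TPM + 1 Cox4i2 was 2.90-fold higher, 1.54 ± 0.40 on the log2 scale (limma, Benjamini-Hochberg adjusted p = 0.0062). It made up a median of 4.02% of the summed level of Cox4i1 and Cox4i2 in treated p53-null and 0.798% in treated p21-null mice. Cox4i1, the common isoform, differed by -0.18 and did not pass. Beside it 5 of the 6 endothelial and pericyte markers were higher in treated p53-null mice, where 20.0% of all genes were. The median of the 6 was 0.84, with Cdh5 (1.25), Rgs5 (1.05), Kdr (0.90) and Pecam1 (0.78) among those higher. The summed level of the 6 was 119.9 to 181.4 in treated p53-null and 48.0 to 144.9 in treated p21-null mice, and no marker of the list was at 0 throughout. Treated p53-null mouse m2769, with 54.7 of Cox4i2, had a sum of 126.1. It had the lowest Pecam1 and Cdh5 but the highest Rgs5 of its group. Treated p21-null mouse m4132, with 13.2 of Cox4i2, had a sum of 57.2, and m4380, with 6.37, had 144.9. The part of these cells in the level of Cox4i2 was not tested.

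**Figure D5:**
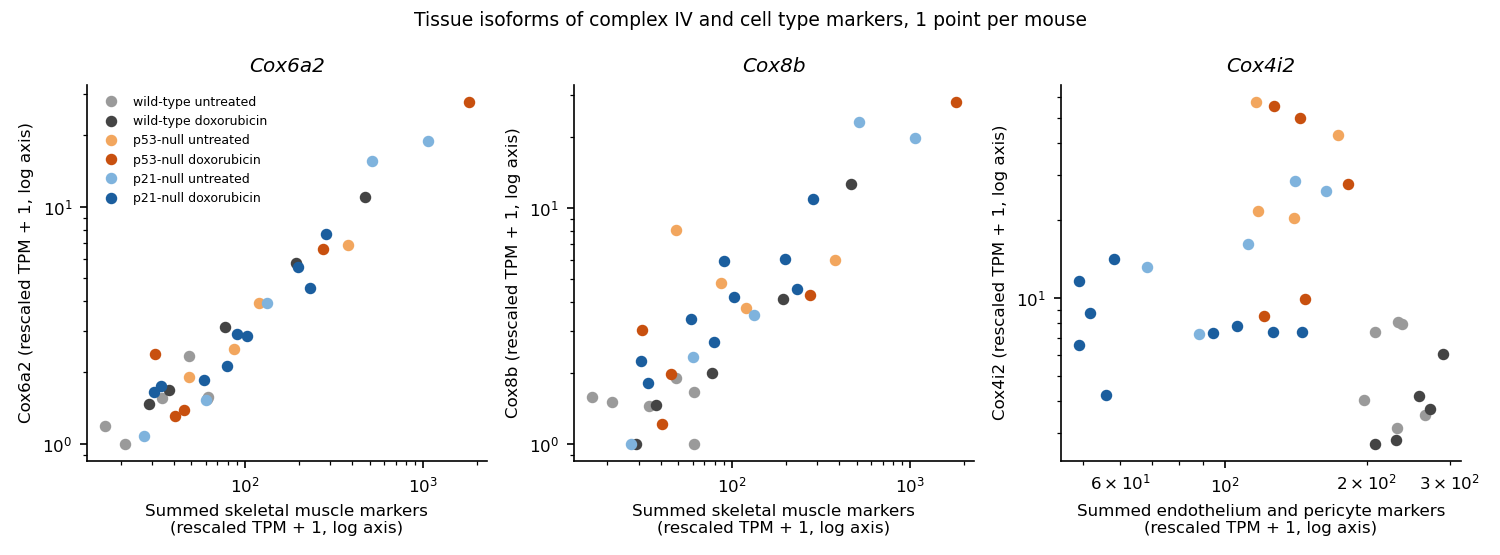
Tissue isoforms of complex IV against summed cell type markers, both as rescaled TPM + 1 on log axes, 1 point per mouse and coloured by group. The treated p53-null mouse with the highest Cox6a2 (26.7) and Cox8b (27.2) also has the highest summed skeletal muscle markers (1799).

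The muscle isoforms Cox6a2 and Cox8b were high in single tumours of several groups. The highest levels were 26.7 and 27.2 rescaled TPM in treated p53-null mouse m2771, then 17.9 and 18.8 in untreated p21-null mouse m4539, 14.6 and 22 in untreated p21-null mouse m4383 and 9.96 and 11.6 in treated wild-type mouse m1475. The medians of the 6 groups ran from 0.555 to 2.92 for Cox6a2 and from 0.543 to 4.40 for Cox8b. The same 4 mice had the 4 highest levels of 10 summed skeletal muscle markers, 1799, 1069, 513 and 467. Neither gene passed in any of the 8 comparisons by limma. Cox7a1, the isoform of heart and skeletal muscle, had a median share of 4.46% to 8.13% of Cox7a1 and Cox7a2 in the 6 groups. Cox7a2, the common form, was lower in treated p53-null than treated p21-null mice (-0.27, limma, Benjamini-Hochberg adjusted p = 0.028), a call lost without p53-null mouse m2688, p53-null mouse m2771 or p21-null mouse m4093. Cox7a2l, known for joining complexes III and IV, and Cox7b differed by -0.12 and -0.14 and did not pass.

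Ndufa4l2 ranged from 5.98 to 103 rescaled TPM over all mice. The treated p53-null mice had 10.9, 11.2, 15.6, 19.7 and 103, the last in mouse m2769. The untreated p21-null mice had 9.84, 17.9, 37.1, 54.2 and 54.8, and the treated ones 5.98, 14.3 and 41.4 as lowest, median and highest. Its treatment difference in p21-null mice was -0.82 ± 0.44 and did not pass. Beside it 3 of 10 hypoxia response genes fell in these mice, with a median of -1.04. So did 4 of 18 glycolysis genes, with a median of -0.50, where 4.03% of all genes fell. After doxorubicin the hypoxia response genes had a median of -0.66 in wild-type and 0.28 in p53-null tumours. The glycolysis genes had -0.24 and -0.10, and none of either list passed in these 2 genotypes. A link of Ndufa4l2 to either list was not tested. Ndufa4 had 678, 954, 1015, 1088 and 1114 in treated p53-null mice and 810.3, 1020.4 and 1215 in treated p21-null mice, which overlapped.

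Other genes of the pathway, from lists chosen with earlier results known, were counted between the treated null groups, and several of these counts depend on the scale. Of 35 assembly factors 3 were higher and 5 lower, with a median of 0.03. On median-of-ratios scaling 1 was higher and 14 lower (median -0.13), and on the TPM as deposited 1 and 10. Sco2, a copper chaperone of complex IV that is known as a p53 target in human cells, was lower (-0.53, limma, Benjamini-Hochberg adjusted p = 0.000717). Ndufaf3 (-0.48) and Cox17 (-0.38) were also lower, and Acad9, a complex I assembly factor related to enzymes of fatty acid oxidation, was higher (0.58). Sco2 rose in p21-null tumours after doxorubicin by 0.34 and Acad9 fell by 0.31 (limma, Benjamini-Hochberg adjusted p = 0.037 and 0.040). In wild-type tumours none of the 35 assembly factors, Sco2 among them, rose by limma after doxorubicin. Of 77 mitochondrial ribosomal protein genes 5 were higher and 18 lower, with a median of -0.06. Of 9 structural genes outside the prefixes 1 was lower, Etfb of the electron transfer flavoprotein (-0.36), and on median-of-ratios scaling 4 were, while Cyc1 and Cycs, which encode cytochromes c1 and c, passed in none of the 8 comparisons.

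Citric acid cycle genes included none that was lower in that comparison. Of 16 tested 5 were higher and none lower by limma, among them Ogdh (0.43) and Pdha1 (0.41). An unadjusted p under 0.05 was found for 7 of the 16 and for 5750 of all 14928 genes. On median-of-ratios scaling 3 were higher and 2 lower, so the count depends on the scale, although both of these genes stayed positive. Pdha1, a subunit of pyruvate dehydrogenase, fell in p21-null tumours after doxorubicin (-0.39, limma, Benjamini-Hochberg adjusted p = 0.0046). Of 18 glycolysis genes Hk1 (0.56) and Pdk1 (0.64) were higher on every scale, although the list median turned from 0.11 to -0.05 on median-of-ratios scaling. Of 13 regulators Gabpa (0.45) and Nrf1 (0.39) were higher and Esrra, an oestrogen-related receptor, lower (-0.48); on median-of-ratios scaling Esrra alone passed. The coactivator Ppargc1a and the mitochondrial transcription factor Tfam passed in none of the 8 comparisons. Slc25a3, the inner membrane phosphate carrier, was lower (-0.36, limma, Benjamini-Hochberg adjusted p = 0.0046), 1 of 2 lower among 18 import and inner membrane genes, of which 4 were lower on median-of-ratios scaling.

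In wild-type tumours the complex III assembly factor Uqcc2 fell after doxorubicin (-0.47) and so did Etfa (-0.28), with limma adjusted p of 0.0054 and 0.015. In p53-null tumours Mdh2, a citric acid cycle enzyme, fell by 0.41 (limma, Benjamini-Hochberg adjusted p = 0.017). The 13 protein-coding genes of the mitochondrial genome, which encode subunits of complexes I, III, IV and V, were read on the TPM as deposited. In treated p53-null against p21-null tumours 8 of 13 were higher and none lower by limma, with a median of 0.60, where on the same scale 35 of the 86 nuclear genes were lower. They held 4.09% to 6.20% of TPM in treated p53-null mice and 2.26% to 3.75% in treated p21-null mice, without overlap. None passed in the other 7 comparisons by limma. The counts higher and lower over all 16338 genes on this scale are given above for the treated null tumours. Of the 13, 9 had an unadjusted p under 0.05 between treated null tumours. After doxorubicin there were 6 in wild-type, 4 in p53-null and none in p21-null tumours. For the response of p53-null minus wild-type tumours there were 7, with a median of 0.60. In each of the remaining comparisons there were 2.

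Of other cell types, 4 of 7 macrophage markers were lower in treated p53-null than treated p21-null tumours, with a median of -0.73. Their summed level was 513 to 2421 rescaled TPM in treated p53-null and 1369 to 3934 in treated p21-null mice. Of 6 basal markers Krt5 was lower (-1.25), and no luminal marker passed by limma (0 with an unadjusted p under 0.05). In treated against untreated tumours 3 of 7 macrophage markers rose in wild-type and 4 in p21-null mice, beside a fall of 4, 4 and 5 of 5 red blood cell genes in wild-type, p53-null and p21-null mice. Adipocyte markers rose too, Lipe (0.79) and Lep (0.57) in wild-type and Adipoq (1.44) in p21-null mice, and all 6 had an unadjusted p under 0.05 in wild-type mice (median 0.85). In p53-null mice none of the 6 passed by limma, with 4 at an unadjusted p under 0.05. Their summed level was 42.2 to 77.1 rescaled TPM in untreated and 84.2 to 146.7 in treated wild-type mice. The part of these cells in the levels of the respiratory chain genes was not tested.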

How the data were processed

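Gene expression was read from 40 tables of TPM, 1 per tumour, which the authors deposited with values to 2 decimals for 43346 genes. RSEM and mm10 were used per the submitters' processing notes, with Ensembl release 79 models on GRCm38 per the names of the files. For the aligner and the version of RSEM the sources used here give nothing. Each table summed to between 999998.9 and 1000001.0, so depth is unknown, and the precision rests on the spread between mice.

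Identifiers were matched to GENCODE M21, of the same build (42462 matched, 884 did not), for symbols, biotypes, coordinates and lengths. Each tumour was rescaled to its 21461 nuclear protein-coding genes. Of the 40 titles 12 share a mouse number with another tumour of the same group, and these were averaged on the log2 scale, giving 34 mice. Genes with at least 1 rescaled TPM in at least 4 mice were kept (14928). The 6 group means were fitted to log2(rescaled TPM + 1) with limma 3.58.1 (statmod 1.5.0, R 4.3.3), trended and robust, with 28 residual degrees of freedom. In all 8 comparisons p-values were adjusted over all genes by Benjamini-Hochberg, at a threshold of 0.05. The mitochondrial genome genes were fitted on the TPM as deposited, which kept 16338 genes. Tables were handled with Python 3.11.15, pandas 2.3.3 and numpy 2.4.6. The fit was tested on simulated data.

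The members, gene lists and alternatives were chosen with earlier results of these data known. Named members are those past the threshold, at most 10 in each direction by adjusted p, or the 3 with the largest difference where fewer than 3 passed. Also named are the highest and lowest member of each complex, the tissue isoforms with their partners, Sdha to Sdhd, Sdhaf1 to Sdhaf4 and Atp5g1 to Atp5g3, and at most 4 genes per other list. The alternatives were the TPM as deposited, median-of-ratios scaling, a scale without haemoglobin, milk and ribosomal protein genes, pseudocounts of 0.1 and 5, a minimum of 5, no filter, plain moderation, all 40 tumours as separate samples, the compared groups alone, the 4 null groups alone (added after the data were seen) and each mouse left out in turn. Promoter windows came from RefSeq on GRCm38.p6. Windows were not used for, among others, Ndufs1, Ndufa2, Ndufa4l2, Ndufb9, Sdhc, Uqcrb, Uqcrc2, Uqcrq, Cox4i1, Cox4i2, Cox6a2, Cox6c, Cox8c, Atp5a1, Atp5f1, Atp5mpl and Atp5s. Some single-gene results are not reported here.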

Additional observations from a re-analysis of the deposited data

Results flagged for a closer look

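In 240 groups of named genes the value of single mice was compared with the rest of its group by Dixon's ratio, which chance alone passes in about 1 of 20 groups. It was passed in 16 groups, by 11 genes. Untreated p53-null mouse m2493 stood apart in Cox4i1 (911.9 rescaled TPM), Uqcrfs1 (166.9) and Uqcrh (803.6), and untreated p53-null mouse m1556 in Atp5g3 (570.6) and Sdhc (116.5). Treated p53-null mouse m2769 stood apart in Cox4i1 (1280) and Ndufa4l2 (103.3), and mouse m2688 in Ndufa1 (212.7). Among p21-null mice it was untreated mouse m4555 in Ndufa1 (314), untreated mouse m4116 in Uqcrh (806.1) and treated mouse m4093 in Atp5g2 (739.2). Among wild-type mice it was untreated mouse m996 in Cox7a2l (359.8), mouse m1178 in Cox8a (563.1) and mouse m998 in Sdhaf3 (8.217), and treated mouse m1188 in Atp5g3 (170.1) and mouse m1475 in Sdhc (111.7).

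The response to doxorubicin differed between genotypes by the limma interaction for 4 genes, with Benjamini-Hochberg adjusted p from 0.0252 to 0.0492. These were Sdhaf1 in p53-null minus wild-type tumours (-0.8065 on the log2 scale), and Ndufa11 (0.6428), Ndufb9 (0.4498) and Ndufb6 (0.681) in p21-null minus p53-null tumours.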

How the results depend on the processing

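No named member that passed changed sign under the alternatives run, while balances over all genes and medians of some other lists did (given in the report and below). The counts of members past the threshold that moved by more than 1.5 times are these. For wild-type tumours after doxorubicin the count higher, 1 in the report, was 0 on the TPM as deposited and on median-of-ratios scaling. The count lower, 3, was 0 on the TPM as deposited and 1 with all 40 tumours as separate samples, with plain moderation, with the compared groups alone, with a pseudocount of 0.1 and on the scale without haemoglobin, milk and ribosomal protein genes (the reduced scale). For p53-null tumours the count lower, 1, was 0 with 40 tumours, on the TPM as deposited, with plain moderation, on median-of-ratios scaling, with the 4 null groups alone, with the compared groups alone and on the reduced scale. For p21-null tumours the count higher, 3, was 1 with the 4 null groups alone and 0 on the reduced scale, and the count lower, 0, was 1 with the compared groups alone and on the reduced scale.

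Between untreated null tumours the count higher, 1, was 0 on the TPM as deposited, on median-of-ratios scaling, with the 4 null groups alone, with the compared groups alone and on the reduced scale, and the count lower, 0, was 1 with 40 tumours. Between treated null tumours the count higher, 1, was 2 with 40 tumours, and the count lower, 33, was 21 with 40 tumours and 17 with the compared groups alone. For the response of p53-null minus wild-type tumours the count lower, 1, was 0 on the TPM as deposited, on median-of-ratios scaling and with the compared groups alone. For p21-null minus p53-null tumours the count higher, 3, was 1 with 40 tumours and on median-of-ratios scaling and 0 on the reduced scale. The causes were not tested.

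With single mice left out, the count lower in treated p53-null against p21-null tumours ran from 24 to 36 and the count higher from 1 to 3. The counts lower and higher ran from 0 to 3 and stayed at 1 in wild-type tumours, from 0 to 3 and stayed at 0 in p53-null tumours, and from 0 to 1 and from 0 to 4 in p21-null tumours. Between untreated null tumours both ran from 0 to 1. The response counts ran from 0 to 2 lower for p53-null minus wild-type and from 0 to 4 higher for p21-null minus p53-null tumours. Median-of-ratios scaling moved the median of all members between treated null tumours from -0.18 to -0.35, with like shifts in each of the 5 complexes. Over all genes tested, the counts higher and lower were 156 and 108 between untreated null tumours and 132 and 163 on the reduced scale, and for the response of p53-null minus wild-type tumours 27 and 84 and, as deposited, 23 and 37. For p21-null minus p53-null they were 94 and 9 and, on the reduced scale, 91 and 47. For p21-null minus wild-type they were 9 and 3 and, as deposited, 63 and 2.

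Depth is unknown for all tables. Sdhaf1, with 7.50 to 18.5 rescaled TPM, and Cox4i2, with 1.72 to 56.7, are the members with a call at the lowest levels. For Sdhaf1 the wild-type levels before rescaling were near 1 TPM. No paired analysis was possible because the labels give no number that is shared between groups.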
